A study of Drosophila melanogaster with 34 samples.

Results

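The regions described here are the 354 binding sites of CoRest-C that overlapped a site of the acetyltransferase CBP and no site of the histone deacetylase Rpd3, out of 1237 CoRest-C sites in all. They are called Rpd3-free sites below. They were chosen by the site lists themselves: a CoRest-C site was taken when 1 bp or more of it lay in the CBP list and no base of it in the Rpd3 list, so its CoRest-C enrichment and its place in the 3 lists describe the choice and test nothing. Of the other CoRest-C sites, 674 overlapped both CBP and Rpd3 (called triple sites below), 92 overlapped Rpd3 without CBP, and 117 overlapped neither.

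The sites came from nuclei of the mushroom body (MB), the *Drosophila* brain centre for olfactory memory, purified from pooled fly heads. The flies were of the CS10 line, w(CS10), with a FLAG-tagged nuclear envelope protein (FLAG-KASH) and the red-light-gated cation channel CsChrimson under *MBp-LexA*, a driver made of a *Mef2* enhancer and the *hsp70Bb* minimal promoter. CoRest-C::myc came from a UAS transgene switched on in the MB by RU486 through MBsw, so anti-myc ChIP reported the tagged transgenic protein. Each site list held sites called in at least 2 of 3 samples from flies given red light, and has no value for single replicates. Nuclear RNA was sequenced from 15 libraries, 3 for each of 5 groups: a naïve group, a group frozen at the end of 5 min of light, and groups rested for 5, 10 or 15 min once the light was off. By the study's methods the CsChrimson flies were fed all-*trans*-retinal, the channel's cofactor. Fly age and sex are not given in the sources used here, which also do not say whether the flies used for nuclear RNA carried CoRest-C::myc and MBsw.

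CoRest is the scaffold of a complex that holds a histone deacetylase on chromatin and is best known for repressing neuronal genes. CoRest-C is a shorter form of it that lacks the N-terminal part of the full-length protein. Rpd3 is a fly class I deacetylase found in several such complexes. CBP, encoded by *nej*, acetylates histones at active enhancers and promoters and is widely used to mark active enhancers. Each protein was precipitated in a ChIP of its own, so an Rpd3-free site is a place where the CoRest-C and CBP lists overlap and no Rpd3 peak reached the calling threshold, which does not show that both proteins sat there together.

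Stretches of 7 Rpd3-free sites are shown, at or near genes named in the results that follow. They are a pair on *Eip74EF*, the gene with the most such sites, a site upstream of *ttk*, and sites at *kay*, *Cpr97Eb* and *Mob2*. The last is the *CG44153* site, which had the sixth highest CoRest-C enrichment. The *ttk* site shown lies more than 1 kb upstream of the gene, so it is not the site counted for *ttk* below. All are read 5′ to 3′ on the plus strand of RefSeq's Release 6 assembly (dm6), and none covers an exon. Capitals mark the E-box CAGCTG, the GAGA repeat GAGAGAG and the CA repeat CACACACA on either strand. The positions are chr3L:17603789-17604088 and chr3L:17612072-17612371 for *Eip74EF*, chr3R:31711674-31711973 for *ttk*, chr3R:29772137-29772376 for *kay*, chr3R:27091131-27091370 for *Cpr97Eb*, chr3L:11553266-11553565 for *Mob2*, and chr2L:10143448-10143747 for *CG44153*. Together they hold 6 CAGCTG and 6 GAGA matches, and a site without a match in the stretch shown says nothing about the factor that binds that motif. Some stretches, among them those of *ttk*, *Cpr97Eb* and *Mob2*, were placed around such a match. The counts therefore do not show how common the motifs are in the sites.
Eip74EF intron A: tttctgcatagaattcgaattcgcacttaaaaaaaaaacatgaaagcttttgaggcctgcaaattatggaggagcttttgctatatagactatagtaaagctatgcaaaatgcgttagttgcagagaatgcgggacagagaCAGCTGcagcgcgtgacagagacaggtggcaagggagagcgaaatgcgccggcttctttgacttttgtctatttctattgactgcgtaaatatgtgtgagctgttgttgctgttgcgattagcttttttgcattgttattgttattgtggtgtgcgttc
Eip74EF intron B: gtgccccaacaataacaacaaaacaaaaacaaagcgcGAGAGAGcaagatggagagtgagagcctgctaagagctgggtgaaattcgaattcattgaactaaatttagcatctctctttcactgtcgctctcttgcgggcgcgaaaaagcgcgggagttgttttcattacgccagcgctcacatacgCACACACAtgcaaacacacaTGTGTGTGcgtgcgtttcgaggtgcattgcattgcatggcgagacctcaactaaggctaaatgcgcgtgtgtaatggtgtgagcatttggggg
ttk upstream: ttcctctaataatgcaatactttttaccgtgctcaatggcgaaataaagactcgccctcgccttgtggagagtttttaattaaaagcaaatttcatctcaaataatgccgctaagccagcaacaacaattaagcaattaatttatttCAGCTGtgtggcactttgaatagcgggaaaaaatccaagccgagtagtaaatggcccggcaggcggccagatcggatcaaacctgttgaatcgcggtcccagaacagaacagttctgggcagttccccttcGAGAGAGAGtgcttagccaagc
kay intron: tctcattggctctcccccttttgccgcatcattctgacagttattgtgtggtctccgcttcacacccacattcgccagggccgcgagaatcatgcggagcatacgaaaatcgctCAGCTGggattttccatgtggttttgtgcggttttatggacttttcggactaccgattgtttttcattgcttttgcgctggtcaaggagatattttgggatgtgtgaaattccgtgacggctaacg
Cpr97Eb upstream: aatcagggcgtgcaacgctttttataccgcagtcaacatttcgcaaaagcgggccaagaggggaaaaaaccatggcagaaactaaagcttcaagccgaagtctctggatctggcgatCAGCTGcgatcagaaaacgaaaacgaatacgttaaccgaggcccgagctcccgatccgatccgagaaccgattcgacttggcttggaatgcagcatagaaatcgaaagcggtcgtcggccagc
Mob2 intron: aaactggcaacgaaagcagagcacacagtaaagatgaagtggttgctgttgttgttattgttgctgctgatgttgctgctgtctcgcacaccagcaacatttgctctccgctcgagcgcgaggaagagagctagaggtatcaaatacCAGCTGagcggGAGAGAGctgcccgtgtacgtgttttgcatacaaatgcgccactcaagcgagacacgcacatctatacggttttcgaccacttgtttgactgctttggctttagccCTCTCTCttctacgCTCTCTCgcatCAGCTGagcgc
CG44153 intron: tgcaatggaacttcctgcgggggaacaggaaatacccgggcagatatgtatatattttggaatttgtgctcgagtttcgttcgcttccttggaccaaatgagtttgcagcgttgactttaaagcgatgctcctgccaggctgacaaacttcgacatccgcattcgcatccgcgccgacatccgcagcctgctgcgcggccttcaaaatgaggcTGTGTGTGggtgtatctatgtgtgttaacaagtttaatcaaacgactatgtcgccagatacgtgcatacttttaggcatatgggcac

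Rpd3-free sites lay farther from transcript starts than triple sites did. Of the 354, 232 (65.5%) had their midpoint within 1 kb of an annotated start, against 91.2% of triple sites, 96.7% of sites with Rpd3 alone and 76.1% of sites with neither. The median distance to a start was 219.5 bp, against 120.5 bp for triple sites. A start lay inside 183 (51.7%) of the Rpd3-free sites and inside 80.1% of triple sites. Beyond 5 kb there were 36 Rpd3-free sites (10.2%) and 11 triple sites (1.63%). The place of the Rpd3-free sites was close to that of the 5684 CBP sites that met no CoRest-C site, 66.6% of which were within 1 kb, while 96.4% of all 2717 Rpd3 sites were. Unlike the Rpd3-free sites, the 5684 were not cleared of sites that met Rpd3, here or in the comparisons below, so the sets are not alike in that. No test was made of these shares, since each list is a single pooled call. The choice removed every site that met Rpd3, so the distance is not independent of it.

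**Figure D1:**
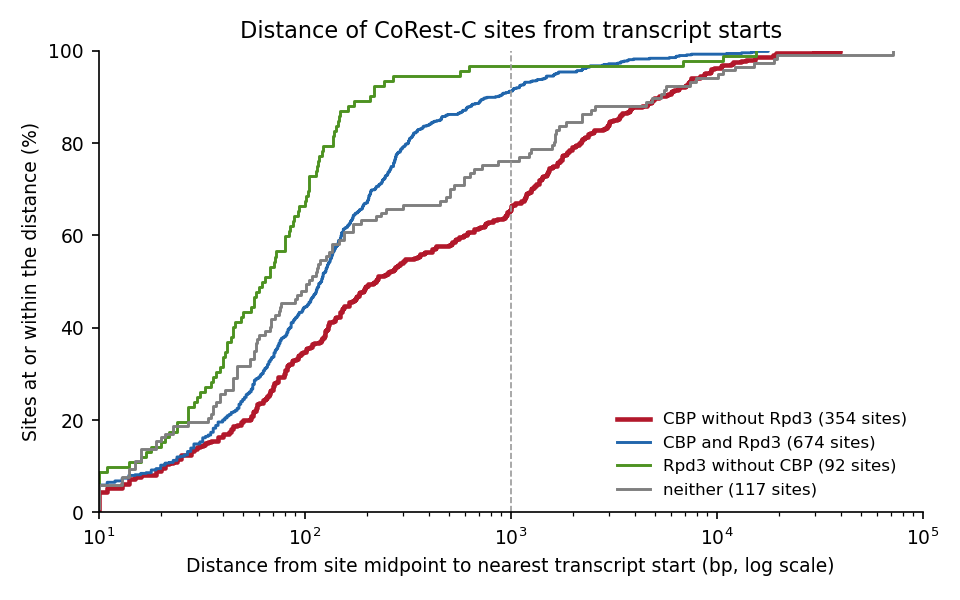
Cumulative share of CoRest-C sites (y axis, percent) by distance from the site midpoint to the nearest transcript start (x axis, bp, log scale), 1 line for each class of site, with a dashed line at 1 kb. At the dashed line the Rpd3-free sites reach 65.5% and the triple sites 91.2%.

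By annotation, 144 Rpd3-free midpoints (40.7%) fell in introns, 100 (28.2%) between genes, 83 (23.4%) in 5′ UTR exons, 13 in exons of non-coding genes, 9 in coding exons and 5 in 3′ UTR exons. Among triple sites the order was different, with 43.6% in 5′ UTR exons and 24.3% in introns. Of the 122 Rpd3-free sites beyond 1 kb of a start, 84 (68.9%) were intronic. The sites covered 175.1 kb in all and had a median width of 435.5 bp (245 to 3358 bp), against 521.5 bp for triple sites. Arm 2R held 81 of them, 3L 80, 3R 78, 2L 62 and X 53, which is 26.2% to 32.7% of the CoRest-C sites on each of these arms.

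Absence of Rpd3 rests on a threshold, and the distance to the nearest Rpd3 site ran from 28 bp to 171361 bp with a median of 10890 bp. Within 500 bp of an Rpd3 site there were 21 Rpd3-free sites, within 1 kb 36, and within 5 kb 120 (33.9%). Just inside the rule stood the site at chr3L:4239498-4240020 near *Sqor*, 28 bp from an Rpd3 site, the one at chr2R:21662947-21663538 near lncRNA:CR44748 at 41 bp, and the one at chr2R:9988269-9988820 near *TER94* at 127 bp. Just outside it, chr2L:21174836-21178612 shared 109 bp with Rpd3, chrX:19353637-19353994 near *kek5* shared 16 bp and chr3L:5750609-5751697 near *DnaJ-1* shared 140 bp. On the CBP side the least overlap among the 354 was 10 bp, at chr3R:18021486-18021880 near *CG7785*. The CoRest-C fold enrichment of these 7 sites, the peak caller's ratio of ChIP to input, ran from 3.66 to 5.76 apart from 16.8 at the 2L site outside the rule.

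The 354 sites met 347 of the 6684 CBP sites. Of these CBP sites 7 held 2 Rpd3-free sites each, and 15 of the 347 met an Rpd3 site somewhere else along their length, which touches 16 of the 354. CBP fold enrichment at the overlapping CBP site had a median of 10.3 (2.55 to 54.3), and 220 sites (62.2%) lay above the median of all CBP sites. Over the 347 CBP sites the median was 10.1 with a median width of 772 bp, against 6.80 and 554 bp for CBP sites without CoRest-C. The CoRest-C and CBP summits were 122.5 bp apart at the median, within 100 bp at 153 sites (43.2%), and 196 CoRest-C sites (55.4%) lay wholly inside the CBP site. Across the 354 sites the enrichments of the pair of proteins hardly moved together (Spearman rho -0.14, sites of 1 list sharing the same libraries). Triple sites had a like CBP median, 10.5.

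The strongest CBP signals at Rpd3-free sites were at chr2L:22018870-22019307 between lncRNA:CR33987 and *tio* (CBP fold enrichment 54.3) and inside *shot* (chr2R:13925326-13925641, 54.2). *shot* encodes a spectraplakin linking actin and microtubules. The signal near the Polycomb-group gene *Su(z)2* (chr2R:13015684-13016075, 50.7) followed. Next came an intron of *CG31368* (chr3R:11888273-11888587, 48.3), *ush* with lncRNA:CR46258 (chr2L:490145-490499, 47.3), and the site more than 1 kb upstream of *ttk* (chr3R:31711419-31712029, 45.7). CoRest-C was enriched 3.34 to 5.26 times at these 6 sites, where the median of all 354 was 4.06 (quartiles 3.63 and 4.68).

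The strongest CoRest-C signals sat elsewhere. The highest was at *w*, which encodes the eye pigment transporter (chrX:2789896-2793253, CoRest-C fold enrichment 40.4), followed by a site that covered the whole of *v*, a gene of eye pigment synthesis (chrX:10923748-10925693, 14.8). Sites of 13.2 and 12.4 lay at the U6 small nuclear RNA genes at 96A (chr3R:24555243-24556091 and chr3R:24556748-24557525), and the second covered the whole of U6:96Ac. Hsp70Bb had 11.3 in its 5′ UTR (chr3R:12505772-12506095), and the *CG44153* intron 9.47 (chr2L:10143217-10143979). The 5 sites at *w*, *v*, Hsp70Bb and U6 thus ran from 11.3 to 40.4, and the other 349 from 3.04 to 9.47. A second CoRest-C site on *w*, at chrX:2795911-2796788, was a triple site at 35.5, and the bases between both *w* sites lay in the first intron of *w* (3108 bp). The *MBp* driver carries an *hsp70Bb* minimal promoter, and pUAST transgenes carry a *white* marker gene, so reads from such copies and from the native *w* and Hsp70Bb loci cannot be told apart. Of the other Hsp70 copies, *Hsp70Ba* had a CoRest-C site with neither protein (4.66), and *Hsp70Aa*, *Hsp70Ab*, *Hsp70Bbb* and *Hsp70Bc* had none on the gene body.

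**Figure D2:**
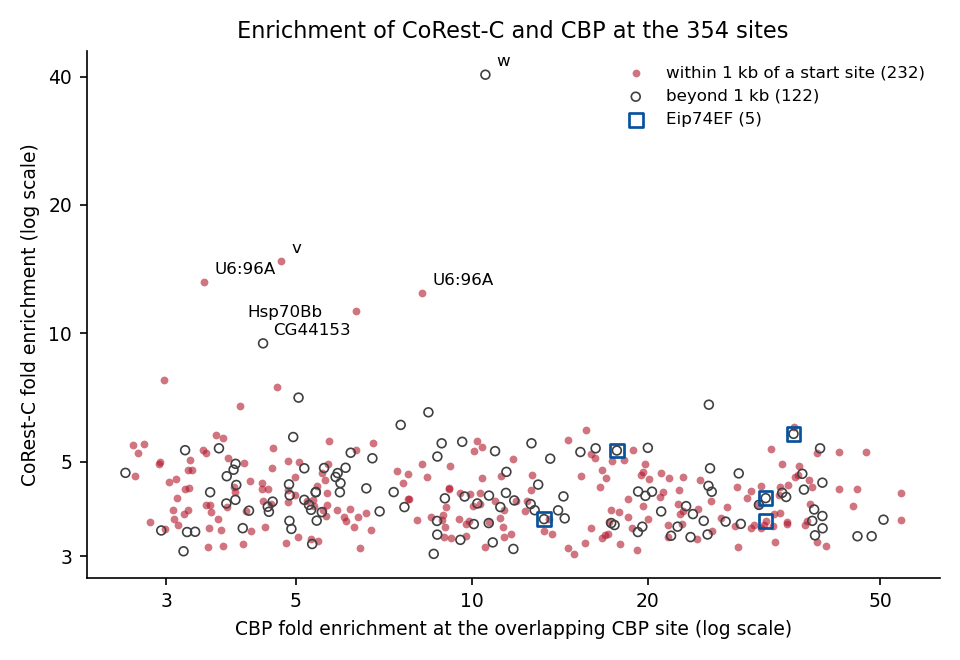
CoRest-C fold enrichment (y axis, log scale) against CBP fold enrichment at the overlapping CBP site (x axis, log scale) for the 354 Rpd3-free sites, filled within 1 kb of a start and open beyond it, with the 5 sites on Eip74EF boxed. The sites at w, v, U6:96A and Hsp70Bb stand above the rest, from 11.3 to 40.4, at CBP values of at most 10.6.

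The letters under the sites were searched for 14 short motifs in 300 bp windows centred on each site, on both strands, with windows allowed to count for several motifs. The E-box CAGCTG, read by basic helix-loop-helix proteins, was in 113 of the 354 windows (31.9%). It was in 25.5% of triple windows and 18.2% of windows at CBP sites without CoRest-C. In start windows, from 250 bp before to 50 bp after the most upstream start of a protein-coding gene, it was in 17.7%. Windows 1 kb to either side of the Rpd3-free sites held it in 14.3% of cases, and those beside CBP sites without CoRest-C in 13.8%. The share was higher still at CoRest-C sites without CBP, 46.7% with Rpd3 alone and 37.6% with neither. Near starts, 37.1% of Rpd3-free windows had CAGCTG, and beyond 1 kb 22.1%. The 113 sites with the motif had a median CBP enrichment of 7.45, against 11.3 for the 241 without it.

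The GAGA repeat GAGAGAG, read by the GAGA factor Trl, showed another order. It was in 61 Rpd3-free windows (17.2%) and 15.1% of triple windows, in 29.3% of CBP windows without CoRest-C, in 5.87% of start windows and in 0 of the 92 and 0 of the 117 windows at CoRest-C sites without CBP. In the flanks of the Rpd3-free sites it was in 5.37%. Median GC content was 46.7% at Rpd3-free sites, 47.0% at triple sites, 46.7% at CBP sites without CoRest-C, 41.0% to 41.7% at CoRest-C sites without CBP, and 38.0% at starts. The other motifs are given with their share of start windows in parentheses. The CA repeat CACACACA was in 14.7% of Rpd3-free windows (4.02%), although triple windows had it in 20.2%, TATAAA in 24.0% (45.8%), the initiator TCAGTT in 16.9% (26.1%), the AP-1 site TGANTCA in 7.34% (6.18%), and the Mef2 motif in 4.80% (14.5%). The DRE TATCGATA, CACGTG and CAGGTAG were in 2.82% each (9.36%, 4.20% and 1.64%), AGGATAA and AAAGGTCA in 0.847% each (2.38% and 0.66%), and TGACGTCA and CCGGAAGT in 0.282% each (0.437% and 0.38%). Of all 32896 words of 8 letters, the word with the greatest excess over CBP sites without CoRest-C, picked after the values were seen, was AACAGCTG, an E-box with its flank. It was in 43 Rpd3-free windows (12.1%), against 5.01% at CBP sites without CoRest-C, 9.64% at triple sites, 7.61% at starts and 2.12% in the flanks.

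**Figure D3:**
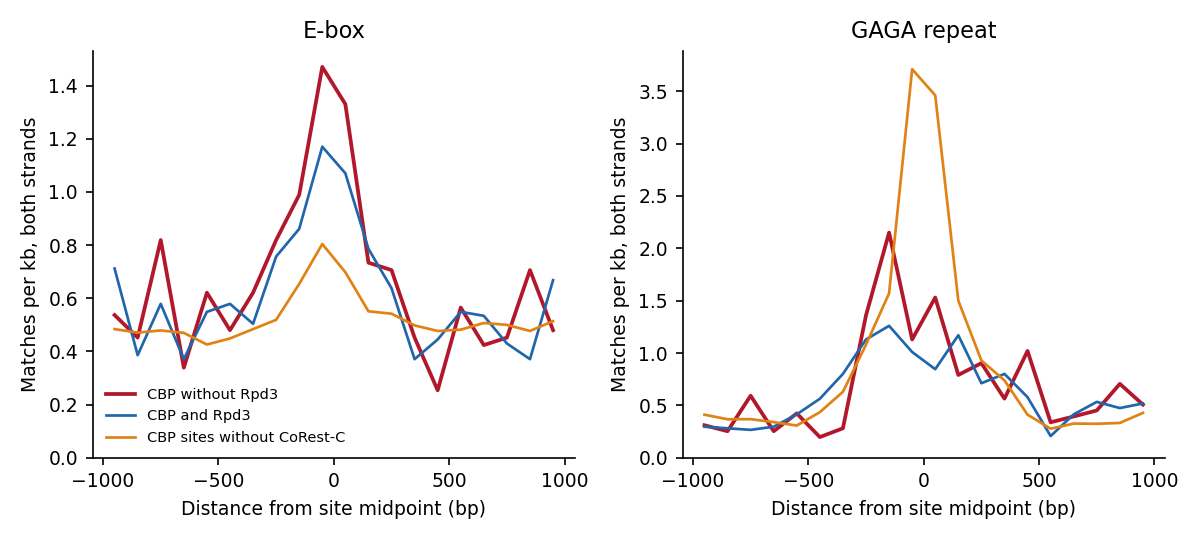
Matches per kb (y axis) of the E-box CAGCTG (left) and the GAGA repeat (right) in 100 bp steps from 1 kb before to 1 kb after the site midpoint (x axis, bp), for Rpd3-free sites, triple sites and CBP sites without CoRest-C. The E-box peaks at the midpoint of Rpd3-free sites at 1.47 matches per kb, and the GAGA repeat is highest at CBP sites without CoRest-C.

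A gene was counted as carrying an Rpd3-free site when the site touched its body or the 1 kb upstream. There were 417 such genes, 367 of them protein-coding, and 28 sites touched no gene. The protein-coding ones were long, with a median of 9.98 kb, against 4.77 kb for genes with a triple site and no Rpd3-free site and 2.16 kb for all protein-coding genes, and a long gene has more room for a site. There were 30 genes with several Rpd3-free sites and 7 with at least 3. *Eip74EF*, an ecdysone-induced ETS transcription factor, had the most, 5 over 60.65 kb with no other class of CoRest-C site. They lay at chr3L:17576241-17576545 (CoRest-C fold enrichment 3.63), 17577453-17578046 (4.10), 17584754-17585027 (3.66), 17603789-17604238 (5.31) and 17612072-17612569 (5.81), of which only the first reached a 5′ UTR exon and the rest were intronic. CBP enrichment over them ran from 13.3 to 35.5, and the nearest Rpd3 site was 8550 bp away. The genes with 3 sites were *ovo*, a zinc finger transcription factor, *siz*, an Arf guanine nucleotide exchange factor, *Mob2*, a kinase cofactor, and the long non-coding RNAs CR44357, CR44833 and CR46006. Another class of CoRest-C site stood on 80 of the 417 genes, a triple site on 68 of them, and an Rpd3 site of any kind on 132.

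For nuclear RNA, 402 of the 417 genes were matched to the table of 17559 genes, 372 passed the low-count filter and were tested among 11670, 30 fell below it and 15 were not matched. Library totals ran from 10392334 to 18809246 counts. Naïve replicate 2 stood apart: its chi-square per degree of freedom against the other naïve libraries was 28.5 and 32.3, against 6.17 between those. The genes with an Rpd3-free site sat at -0.08 in it (median log2 difference from the naïve mean) and at 0.03 and 0.04 in the other naïve libraries. Markers of other head cells were present beside those of the MB: 14 photoreceptor genes summed to 29800 to 34400 CPM (counts scaled to library size) in the naïve libraries and 23 MB genes to 8770 to 8920. The labels do not say that libraries of a group came from separate cultures, so p-values measure the spread between these libraries, which may be technical, and in bulk nuclei fewer cells of a type and less RNA per cell cannot be told apart.

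Genes with an Rpd3-free site were called higher than naïve more often than lower at each time (edgeR's quasi-likelihood test, Benjamini-Hochberg adjusted p under 0.05). Right after the light, 48 of 372 (12.9%) were higher, where 4.88% of all tested genes were, and 7 (1.88%) were lower, where 3.45% of all were. After 5 min of rest 92 (24.7%) were higher against 8.75% of all, and 9 (2.42%) lower against 6.02%. The peak was at 10 min, with 141 (37.9%) higher against 14.5% of all, among them *Hsp70Bb*, *ttk* and *Eip74EF*, and 17 (4.57%) lower against 13.9%, among them *vri*. By 15 min 44 (11.8%) were higher against 5.41%, and 16 (4.30%) lower against 4.24%. The median log2 fold change over the 372 genes was 0.09, 0.15, 0.21 and 0.05 at these times, while over all tested genes it was -0.02, -0.03, -0.05 and -0.04. Each library moved alike: the median against the naïve mean was 0.07 to 0.11 in the libraries taken right after the light, 0.12 to 0.17 at 5 min, 0.20 to 0.21 at 10 min and 0.05 to 0.09 at 15 min. All 4 comparisons share the naïve libraries.

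Genes with triple sites and no Rpd3-free site (875 tested) were called higher in 7.66%, 15.9%, 27.7% and 8.69% of cases at these times, genes with CBP and no CoRest-C (3742) in 6.81%, 12.0%, 20.7% and 7.16%, and genes with none of the 3 proteins (5149) in 3.36%, 5.71%, 8.74% and 3.71%. More reads make a call easier, and the naïve medians were 68.7, 69.8, 48.3 and 9.21 CPM in these 4 sets (CPM, not per length). Among genes at 20 CPM or more, a limit added after the data were seen, 44.3% of genes with an Rpd3-free site were higher at 10 min, 32.8% with triple sites and no Rpd3-free site, 25.8% with CBP and no CoRest-C (some of which also carried Rpd3) and 21.6% of all. Restricted to the 244 genes with no Rpd3 site of any kind, also added later, the share was 31.1% (76 genes). The sets were not tested against each other, and they differ in gene length as given above.

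**Figure D4:**
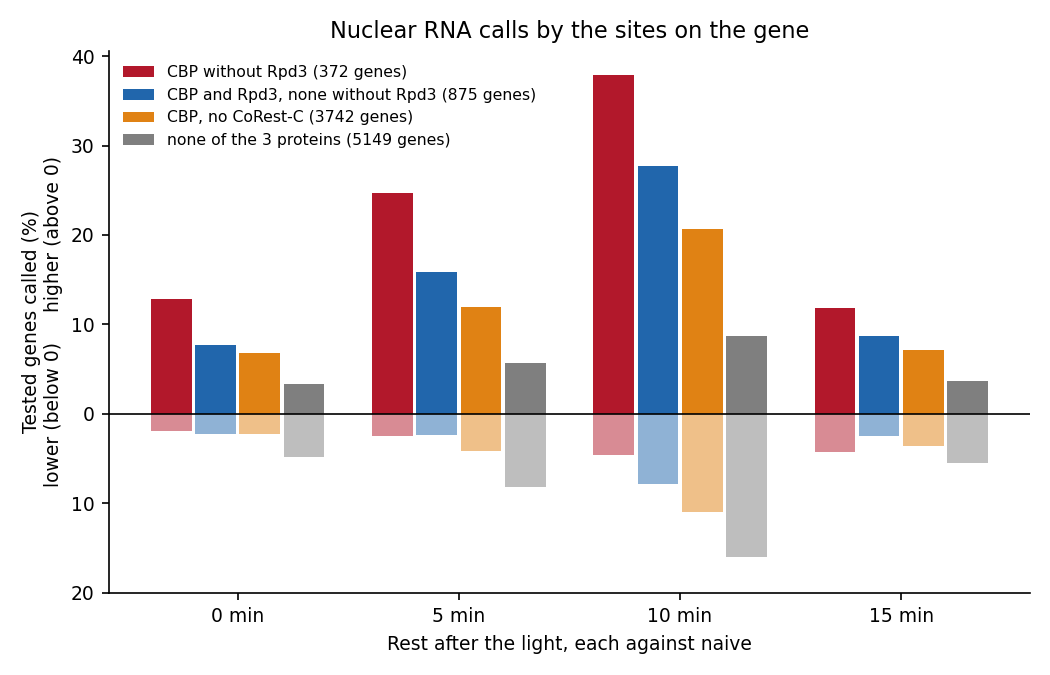
Share of tested genes called higher (above 0) and lower (below 0) than naïve in nuclear RNA (y axis, percent) at each time of rest after the light (x axis, min), by the binding sites on the gene. Genes with an Rpd3-free site reach 37.9% higher at 10 min, genes with triple sites and no Rpd3-free site 27.7% and genes with none of the 3 proteins 8.74%.

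Of the 372 genes, 187 were called at no time, 15 at all 4 times (12 of them higher at each) and 50 at 10 min alone. Of the 141 higher at 10 min, 35 were also called higher at 15 min and 106 were not, which does not by itself show that they differed between these times. Among those 106, *Cpr97Eb*, *Rsod*, *hid*, *CG13676*, *uif* and *ft* were called lower at 15 min. Counts of these kinds were not made over all tested genes, so they do not set genes with an Rpd3-free site apart. Scaling by library size alone moved the median of all genes at 10 min from -0.05 to -0.17 and lowered the share of higher among called genes from 51.0% to 30.3%, with 40.6% under upper quartile scaling. At 5 and 15 min library size alone lowered it from 59.2% to 35.0% and from 56.0% to 31.9%. Among genes with an Rpd3-free site that share went from 89.2% to 71.5% at 10 min, from 91.1% to 72.0% at 5 min, and from 73.3% to 49.1% at 15 min, where the counts were 27 higher and 28 lower. Without naïve replicate 2 the counts at 10 min were 140 higher and 14 lower. Single libraries moved other counts by more than 1.5 times: right after the light 31 and 29 were higher without light replicates 2 and 3 and 4 lower without light replicate 1, at 5 min 58 were higher without replicate 3 of that group and 4 and 5 lower without its replicates 2 and 3, and at 10 min 9 and 10 were lower without its replicates 1 and 2.

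The ecdysone pathway, in which the steroid hormone acts through the receptor EcR on a small set of early transcription factors, had Rpd3-free sites on 4 of 17 listed genes: *EcR*, *br*, *Eip74EF* and *ImpL2*. *Eip74EF* (chr3L:17558672-17619325) had 47.7, 48.0 and 47.2 CPM in the naïve libraries, 59.8, 61.0 and 64.8 right after the light, 72.1, 61.0 and 76.4 at 5 min, 74.2, 86.6 and 75.2 at 10 min, and 44.6, 55.3 and 62.1 at 15 min. Every library up to 10 min was above all naïve ones, and at 15 min the groups overlapped. The log2 fold change at 10 min was 0.72 ± 0.11 (SE, n = 3, edgeR adjusted p = 1.94e-05). *ImpL2*, a secreted protein that binds insulin-like peptides, had 2 Rpd3-free sites in introns and 226, 250 and 219 CPM in naïve nuclei. It had 392, 413 and 390 at 10 min and 431, 404 and 367 at 15 min, both above every naïve library (0.78 ± 0.09 and 0.79 ± 0.09, edgeR adjusted p = 7.25e-08 and 9.37e-08). *EcR* itself went from 41.5, 41.8 and 44.2 CPM to 59.6, 64.0 and 57.2 at 10 min (0.50 ± 0.12, edgeR adjusted p = 0.00186), with a site in an intron at chr2R:6151045-6151500. *br*, an early zinc finger gene, did not pass the test (0.16 ± 0.18, edgeR adjusted p = 0.549), and its libraries of 21.1, 28.1 and 18.2 CPM overlapped the 29.2, 26.2 and 19.9 at 10 min. Over all 17 listed genes 8 were higher and 0 lower at 10 min (median log2 fold change 0.29), where 14.5% of all tested genes were higher and 13.9% lower. Triple sites were also on 4 of the 17 genes (23.5% for each class, against 2.62% and 6.63% of all protein-coding genes), *EcR* and *ImpL2* among them, and the listed genes had a median length of 50.7 kb.

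Chromatin regulators had Rpd3-free sites on 4 of 23 listed genes (17.4%) and triple sites on 9 (39.1%), against 2.62% and 6.63% of all protein-coding genes. The listed genes had a median length of 11.9 kb, against 2.16 kb for all protein-coding genes. *ttk* (chr3R:31713867-31735392), a BTB zinc finger repressor of neuronal fate, had 103, 86.7 and 118 CPM in naïve nuclei and 135, 129 and 142 right after the light. It reached 153, 171 and 166 at 5 min and 213, 211 and 208 at 10 min, then 153, 144 and 161 at 15 min. All 12 libraries after light were above the highest naïve one, and the log2 fold change at 10 min was 1.04 ± 0.10 (edgeR adjusted p = 2.4e-09), from 0.93 to 1.15 when single libraries were left out. *trx*, the Trithorax histone methyltransferase, had its site at its own start (chr3R:14286566-14287083), with 114, 85.5 and 109 CPM in naïve nuclei and 168, 179 and 155 at 10 min. The groups did not overlap (0.70 ± 0.10, edgeR adjusted p = 3.36e-06), while the 111, 104 and 115 at 15 min overlapped the naïve libraries. *Sin3A*, a deacetylase corepressor whose site lies upstream of it at the start of the neighbouring *Amph*, and *osa*, a subunit of the Brahma remodeller, both carry a triple site too and did not pass the test at 10 min (0.12 ± 0.09 and 0.09 ± 0.09, edgeR adjusted p = 0.356 and 0.498). In the whole list 5 genes were higher and 3 lower at 10 min, against the same 14.5% and 13.9% of all genes. The genes of the proteins studied, *CoRest*, *nej* and *Rpd3*, carried no Rpd3-free site.

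**Figure D5:**
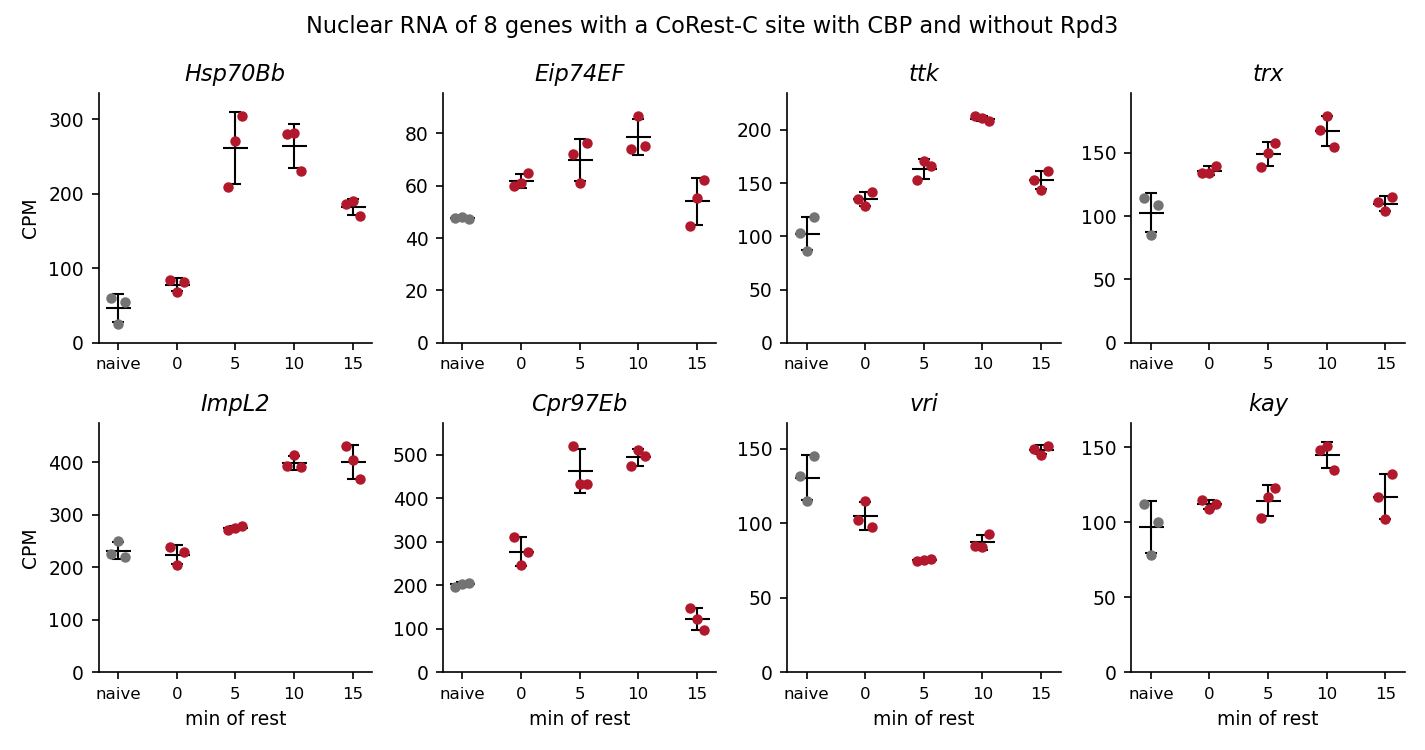
Nuclear RNA in CPM (y axis) in every library of naïve flies and of flies at 0, 5, 10 and 15 min of rest after the light (x axis) for 8 genes with an Rpd3-free site, each point a library, with bars for the mean and SD (n = 3). ttk, trx and Eip74EF lie above naïve in every library at 10 min, vri lies below, and Cpr97Eb drops below its naïve libraries at 15 min.

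Of 16 activity-regulated genes 2 (12.5%) had Rpd3-free sites and 8 of the 16 triple ones, against 2.62% and 6.63% of all protein-coding genes. *kay*, the fly Fos, carried both classes, with its Rpd3-free site in an intron 359 bp from an Rpd3 site. It had 112, 77.9 and 100 CPM in naïve nuclei, 148, 151 and 135 at 10 min and 117, 102 and 132 at 15 min. At 10 min the groups were separate (0.58 ± 0.11, edgeR adjusted p = 0.000283), and at 15 min they overlapped. *CrebB*, the fly CREB, had Rpd3-free sites at its start and in an intron besides a triple site, and its 98.8, 81.2 and 95.2 CPM in naïve nuclei and 101, 114 and 101 at 10 min did not differ by the test (0.19 ± 0.10, edgeR adjusted p = 0.154). Of the 16 genes 10 were higher and 0 lower at 10 min (14.5% and 13.9% of all genes), but the list holds genes that the study picked from these libraries, so its direction is not independent evidence. MB identity and memory genes had 1 of 23, *Syp*, an RNA-binding protein that sets neuron identity over developmental time. Its libraries went from 750, 823 and 738 CPM to 1160, 1110 and 959 at 10 min without overlap (0.48 ± 0.10, edgeR adjusted p = 0.000737), whereas in that list 4 genes were higher and 4 lower.

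The largest increase at 10 min among genes with an Rpd3-free site, by the rule for named genes, was at *Hsp70Bb* (chr3R:12505793-12508139), a heat-inducible chaperone. It had 59.7, 25.6 and 54.5 CPM in naïve nuclei, 84.2, 68.3 and 81.8 right after the light, 209, 271 and 304 at 5 min, 280, 282 and 230 at 10 min, and 186, 190 and 170 at 15 min. No library after light overlapped the naïve ones, and the change at 10 min was 2.50 ± 0.18 on the log2 scale (edgeR adjusted p = 1.49e-11). Hsp70 genes are near-identical copies, so the split of reads among them is uncertain. *GstE8*, a glutathione transferase, rose from 7.31, 7.31 and 12.0 CPM to 28.7, 32.9 and 24.2 (1.70 ± 0.18, edgeR adjusted p = 3.15e-08), and its site lay at its 3′ end beside the start of *GstE9* (0.31 ± 0.12, edgeR adjusted p = 0.0562). *CG5966*, with a site at its own start, was already higher right after the light, going from 20.4, 22.5 and 25.7 CPM in naïve nuclei to 62.8, 71.6 and 61.2 (1.52 ± 0.13, edgeR adjusted p = 1.19e-09) and 58.4, 50.7 and 64.6 at 10 min. *ken*, a BTB zinc finger repressor with an intronic site 385 bp from Rpd3 and a triple site, went from 44.5, 22.9 and 41.3 CPM to 87.9, 85.4 and 84.7 (1.25 ± 0.15, edgeR adjusted p = 3.31e-07). *Cad74A*, a cadherin, went from 11.6, 8.80 and 9.83 CPM to 24.6, 20.4 and 20.8 (1.12 ± 0.17, edgeR adjusted p = 1.26e-05). The rule took only genes called at 10 min with separate groups, so the choice fixed their separation and low p there.

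*Cpr97Eb*, a cuticle protein gene with a site over its start (chr3R:27090985-27091462), changed sign. Naïve libraries had 196, 204 and 206 CPM, those at 10 min 474, 511 and 497, and those at 15 min 147, 122 and 97.5. It was thus above every naïve library at 10 min (1.29 ± 0.11, edgeR adjusted p = 5.54e-10) and below every one at 15 min (-0.73 ± 0.11, edgeR adjusted p = 2.89e-05). The rule for named genes required the separation at 10 min but not that at 15 min. Calls in opposite directions at different times were found for 8 of the 372 genes, the others being *Rsod*, *hid*, *CG13676*, *Nadk1a*, *Tat*, *uif* and *ft*. The share of all tested genes with such opposite calls was not counted. At 15 min marker genes of other cells also moved: the 14 photoreceptor genes summed to 42400 to 50700 CPM (9 higher, 0 lower), and the 7 fat body genes to 21800 to 23100 CPM against 15000 to 15100 in naïve nuclei (6 higher, 0 lower). Their part in the changes at 15 min was not tested. At 10 min the photoreceptor sum was 28400 to 29300 CPM (7 lower, 0 higher), the fat body sum 15600 to 16100, and the glial sum 2430 to 2520 against 1990 to 2400, and their part in the calls at 10 min was not tested either. The MB sum was 9130 to 10300 CPM at 10 min, also above every naïve library. At 5 min the photoreceptor sum was 28200 to 28700 CPM (6 lower, 0 higher), below every naïve library, and the fat body sum 16300 to 16700, above every one, and their part was not tested. Rpd3-free sites stood on 0 of the 14 photoreceptor, 0 of the 7 fat body and 1 of the 8 glial genes (*moody*).

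Few genes with an Rpd3-free site fell. Those named here were picked as called at 10 min with separate groups, so the choice fixed their separation at 10 min. *vri*, a bZIP repressor of the circadian clock with its site in an intron (chr2L:5301284-5301545), had 132, 115 and 145 CPM in naïve nuclei, 74.5, 75.1 and 76.2 at 5 min and 84.5, 83.9 and 93.0 at 10 min. Both groups lay below every naïve library (10 min: -0.58 ± 0.09, edgeR adjusted p = 2.78e-05), and the 150, 146 and 152 at 15 min did not pass the test (0.19 ± 0.09, edgeR adjusted p = 0.211). *jdp*, a J-domain protein with a site just upstream of its start, fell from 1130, 1270 and 1230 CPM to 847, 842 and 800 (-0.55 ± 0.08, edgeR adjusted p = 9.46e-06). *mRpL34*, a mitochondrial ribosomal protein, fell from 5.77, 8.73 and 5.71 CPM to 2.30, 2.14 and 2.30 (-1.58 ± 0.31, edgeR adjusted p = 0.000309), and its site lay at the start of the upstream neighbour *Dg* (0.03 ± 0.10, edgeR adjusted p = 0.84). *CG7565* fell from 53.0, 53.1 and 50.3 CPM to 37.3, 34.2 and 41.2 (-0.47 ± 0.11, edgeR adjusted p = 0.0023). *Rrp40*, an exosome subunit, and *CG11127* were called with -0.83 ± 0.28 and -0.47 ± 0.16 (edgeR adjusted p = 0.027 and 0.0249), and each call was lost when single libraries were left out. For *Rrp40* the value was -0.48 without naïve replicate 2 and -0.72 and -0.88 without 10 min replicates 1 and 2. For *CG11127* it was -0.36 without naïve replicate 3 and -0.40 without 10 min replicate 2.

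Some sites touched more than 1 gene, and differences between such neighbours were not tested. The site at *Amph*, an amphiphysin, touched the upstream part of *Sin3A*: *Amph* was higher at 10 min (0.48 ± 0.08, edgeR adjusted p = 5.84e-05), and *Sin3A* was not called. Among genes with 3 Rpd3-free sites, *ovo* (1.04 ± 0.13, edgeR adjusted p = 7.54e-07), *siz* (0.68 ± 0.11, adjusted p = 1.77e-05) and *Mob2* (0.26 ± 0.08, adjusted p = 0.0206) were called higher at 10 min. Of genes with strong sites, *shot* was higher (0.56 ± 0.08, edgeR adjusted p = 6.29e-06), *w* was higher (0.52 ± 0.12, adjusted p = 0.00124), *v* was lower (-0.37 ± 0.12, adjusted p = 0.0249), and *CG44153* was not called (0.02 ± 0.16, adjusted p = 0.936). Both *shot* and *w* also carry a triple site. These genes were picked for their sites and not by the rule for named genes. Counts for *w* may include transcripts of *white* marker genes on transgenes, which was not tested.

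Across the remaining lists, Rpd3-free sites were on 2 of 20 channel genes (*KCNQ* and *NaCP60E*), 2 of 24 genes of cAMP and calcium signalling (*CrebB* and the phosphodiesterase gene *Pde11*), 0 of 37 transmitter receptors, 0 of 34 adhesion and guidance genes and 1 of 92 ribosomal protein genes (*RpL41*). Of all protein-coding genes 2.62% carried one. *NaCP60E*, a sodium channel gene, was higher at 10 min (0.28 ± 0.09, edgeR adjusted p = 0.0198), as was *Pde11* (0.50 ± 0.09, adjusted p = 0.000129), while *KCNQ*, a potassium channel gene, and *RpL41* were not called (0.20 ± 0.10 and -0.24 ± 0.16, edgeR adjusted p = 0.122 and 0.28). The median gene length was 39.8 kb for channels, 18.9 kb for cAMP and calcium signalling, 24.2 kb for receptors, 39.0 kb for adhesion and 1.31 kb for ribosomal proteins.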

How the data were processed

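MB nuclei were immunoprecipitated through FLAG-KASH from pooled heads and used for ChIP and for oligo-dT nuclear RNA. The authors mapped reads to dm6 with STAR, dropped non-primary and low-quality alignments, called peaks with MACS in Strand NGS, and kept sites whose peaks recurred in 2 or more of the 3 samples from illuminated flies. The deposited site lists give positions, −log10 p and a fold ratio of ChIP over input, 1 set of values for each site, without saying which replicate these came from. Repeated entries were merged by position (1471 to 1237 for CoRest-C, 3811 to 2717 for Rpd3, 6684 for CBP). Sites of naïve flies were not analysed here. The deposited RNA table holds raw counts of reads on exons per gene, which the authors made with HTSeq. Reads came from the 3′ region of transcripts, and the strand setting is not given in the sources used here, so overlapping and antisense genes cannot be told apart. A further deposited table of the authors' own DESeq2 comparison was not used.

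Counts were fitted for all 15 libraries in 1 model of 5 groups with edgeR 4.0.16 (R 4.3.3; TMM, filterByExpr, quasi-likelihood test, checked on simulated data), with Benjamini-Hochberg adjustment over 11670 genes and calls at 0.05. CPM values use TMM. Genes were assigned when a site touched the body or 1 kb upstream in the dm6 annotation (18358 genes). Motifs were matched by exact letters. Named genes were the 6 highest and 6 lowest at 10 min among called genes with separate groups and a mean log2 CPM of at least 1, plus every gene of the lists for MB identity, activity, ecdysone and chromatin that carried a site. The regions, gene lists and named-gene rule were chosen with earlier results of these data known. Alternatives (scaling, DESeq2 1.42.0, filters, 6 libraries, left-out libraries, replicate block, other overlap, window and gene rules) are given in the closing section. One sequence stretch is not reported here.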

Additional observations from a re-analysis of the deposited data

Results flagged for a closer look

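For 12 of the named genes the effect of the light after 15 min of rest differed from that after 10 min in a test of the difference itself (edgeR's quasi-likelihood test, adjusted over all tested genes). Most had been higher at 10 min and came down: the difference, 15 min minus 10 min on the log2 scale, was -2.02 for *Cpr97Eb*, -0.79 for *ken*, -0.60 for *Cad74A*, -0.60 for *trx*, -0.58 for *CG5966*, -0.54 for *Hsp70Bb*, -0.54 for *Eip74EF*, -0.46 for *ttk* and -0.43 for *Syp*. Of the named genes lower at 10 min, *vri* went up by 0.78, *jdp* by 0.34 and *CG7565* by 0.34. The others, *mRpL34* (0.49), *Rrp40* (0.64) and *CG11127* (0.06), did not pass the test (edgeR adjusted p = 0.332, 0.127 and 0.853). The named genes were mostly picked by their size at 10 min, and the same 10 min libraries enter the difference, so the choice favours a return toward the naïve level. *GstE8* (0.20) and *ImpL2* (0.01), both higher at each of these times, gave no such difference (edgeR adjusted p = 0.479 and 0.96), nor did *kay* (-0.30, adjusted p = 0.0623) or *EcR* (-0.19, adjusted p = 0.31). Photoreceptor markers summed to 42400 to 50700 CPM at 15 min and 28400 to 29300 CPM at 10 min, and their part in these differences was not tested.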

How the results depend on the processing

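Of the results on site counts, positions, motif shares and gene calls, 121 values under an alternative stayed close to the main one and 43 moved, and no direction of a named gene at 10 min reversed. Named genes at other times were not rerun. Keeping only CoRest-C sites at or above the median enrichment left 160 Rpd3-free sites, while 340 had at least 50% of their length inside CBP sites, and 333 and 318 had no Rpd3 site within 500 bp and 1 kb. The share within 1 kb of a start was 49.15% with 1 start site per gene and 57.91% for a window of 500 bp. DESeq2 called 149 higher and 16 lower at 10 min, and dropping the low-count filter gave 145 and 18. With library size alone the genes with an Rpd3-free site called higher and lower numbered 59 and 23 at 5 min and 27 and 28 at 15 min, and 45 were lower at 10 min. Upper quartile scaling gave 15 lower at 5 min. Fits on only the 6 libraries compared gave 21 higher and 4 lower right after the light, 56 and 4 at 5 min, 10 lower at 10 min and 7 lower at 15 min. A start within 1 kb as the gene rule gave 3 lower right after the light. Keeping only genes with no Rpd3 site, chosen after seeing the data, gave 26 higher and 4 lower right after the light, 50 higher at 5 min, 76 at 10 min and 25 at 15 min. The cause of these moves was not tested, although the fits on fewer libraries or genes can call fewer. Leaving out 1 library at a time gave 29 to 45 higher and 4 to 9 lower right after the light, 58 to 88 and 4 to 11 at 5 min, 122 to 141 and 9 to 19 at 10 min, and 33 to 42 and 12 to 15 at 15 min. *Rrp40* missed the threshold without naïve replicate 2 (-0.48) and under 3 other settings, and *CG11127* without naïve replicate 3 (-0.36) or 10 min replicate 2 (-0.40).

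Motif shares follow the window. In 200 bp windows they were 22.6% for CAGCTG, 12.4% for the GAGA repeat, 9.6% for the CA repeat, 15.5% for TATAAA and 0% for TGACGTCA. Over whole sites they were 42.4% for CAGCTG, 24.0% for the GAGA repeat, 22.0% for the CA repeat, 34.5% for TATAAA, 26.6% for TCAGTT, 11.3% for TGANTCA, 10.5% for Mef2, 5.65% for CACGTG and 2.82% for AGGATAA.

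Replicate numbers did not pair the libraries: same-numbered deviations correlated at -0.103 to 0.0494 and 6 of 15 libraries correlated best with their own number. With the replicate block the counts of higher and lower genes were 43 and 6 right after the light, 91 and 9 at 5 min, 142 and 16 at 10 min and 40 and 16 at 15 min.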
